A study of Homo sapiens with 8 samples.

Results

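The 26S proteasome is the protease that degrades ubiquitin-tagged proteins in the cytosol and nucleus. Its barrel, the 20S core, stacks rings of α subunits (PSMA genes), which gate the entry, around rings of β subunits (PSMB genes), which hold the proteolytic sites. The 19S regulatory particle caps the barrel: its base, with the ATPases (PSMC genes) and scaffold subunits, unfolds substrates, and its lid (PSMD genes) removes their ubiquitin. Interferon can replace the catalytic β subunits with inducible ones, PSMB8, PSMB9 and PSMB10, which gives the immunoproteasome that trims peptides for MHC class I. The members described here are the rows of the count table named PSMA, PSMB, PSMC or PSMD with a number that had at least 10 counts in at least 2 of the 8 libraries. Of 39 such names 36 passed, among 61209 gene names in the table, of which 22682 met the same minimum. They are 16 core and 20 regulatory genes on 15 chromosomes, 6 of them on chromosome 17.

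RNA was sequenced from the established line H1, human embryonic stem cells, carrying Msx1-P2A-tdTomato, in which a red fluorescent protein reports Msx1. All cells shared the first steps, a day 0 mix of Activin A (50 ng/mL), CHIR99021 (6 µM), BMP4 (40 ng/mL) and FGF2 (10 ng/mL), then BMP4 (60 ng/mL) plus CHIR99021 (1 µM) for 3 days. On day 4 they were pelleted at 25000 cells per well. On day 8 they were sorted as Msx1+Pdgfra+ (here Pdgfra-positive) or Msx1+Pdgfralow (here Pdgfra-low) cells. The 4 groups of 2 libraries are FGF8+10 Pdgfra-positive, FGF8+10 Pdgfra-low, Mock Pdgfra-positive and Mock Pdgfra-low, where FGF8+10 means FGF8 and FGF10 at 500 ng/mL each. The labels attach 1 protocol text to every library, so what the Mock medium held is not known here. The sort followed the treatment, so cells within 1 gate need not be alike between treatments. The labels call the replicates biological but do not say that they came from separate differentiations, so p-values measure the spread between these samples.

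Depth was 47698561 to 64390444 counts per library. PDGFRA, the receptor used in the sort, had 712 and 716 CPM (counts relative to library size, scaled by the trimmed mean of M-values, TMM) in FGF8+10 Pdgfra-positive, 279 and 292 CPM in FGF8+10 Pdgfra-low, 453 and 455 CPM in Mock Pdgfra-positive and 194 and 189 CPM in Mock Pdgfra-low libraries. MSX1 was detected in every library, and the pluripotency genes POU5F1, NANOG and ZFP42 were under 1 CPM in all of them. The whole pluripotency list, most of it LIN28A, DPPA4 and TDGF1, summed to 219 to 224 CPM in FGF8+10 Pdgfra-positive, 286 to 287 CPM in FGF8+10 Pdgfra-low, 134 to 136 CPM in Mock Pdgfra-positive and 107 to 109.5 CPM in Mock Pdgfra-low libraries. LIN28A had group means of 146, 218, 37.6 and 41.8 CPM in this order of groups. TDGF1 had 31.5, 23.5, 51.9 and 28.3 CPM, lowest in FGF8+10 Pdgfra-low, and DPPA4 had 44.0, 44.1, 44.4 and 36.5 CPM. The cardiac muscle list, with MYH6, MYH7 and NPPA under 1 CPM in every library, summed to 21.0 to 22.1, 9.37 to 9.58, 147 to 152 and 140 to 146 CPM in these groups. Of 12 endothelial markers, all were higher in FGF8+10 Pdgfra-low than in Mock Pdgfra-low cells (median log2 fold change 3.38), where 27.9% of all genes tested were. In FGF8+10 Pdgfra-positive against FGF8+10 Pdgfra-low cells 11 of the 12 were lower, where 21.7% of all genes tested were. PECAM1, an endothelial junction protein, had 2.09 and 3.11 CPM in FGF8+10 Pdgfra-positive, 19.4 and 17.5 CPM in FGF8+10 Pdgfra-low, 0.986 and 0.892 CPM in Mock Pdgfra-positive and 0.706 and 0.645 CPM in Mock Pdgfra-low libraries, while CLDN5 was under 1 CPM in all. The summed endothelial list was 2132 to 2141 CPM in FGF8+10 Pdgfra-positive, 2585 to 2591 CPM in FGF8+10 Pdgfra-low, 1330 to 1344 CPM in Mock Pdgfra-positive and 1363 to 1371 CPM in Mock Pdgfra-low libraries, most of it KDR and TEK. The summed epithelial list, nearly all of it KRT8, KRT18 and KRT19, was 471 to 475 CPM in FGF8+10 Pdgfra-positive, 1293 to 1302 CPM in FGF8+10 Pdgfra-low, 665 to 666 CPM in Mock Pdgfra-positive and 1130 to 1135 CPM in Mock Pdgfra-low libraries. Its genes did not move together. Of 6 tested, 2 (KRT8 and KRT18) rose with FGF8+10 in Pdgfra-low cells and 2 (KRT19 and CDH1) fell. Of all genes 27.9% rose and 27.7% fell there. KRT19 had group means of 227, 328, 403 and 528 CPM in the same order, highest in Mock Pdgfra-low cells. Blood markers summed to 2.41 to 2.87, 19.5 to 21.9, 3.01 to 4.23 and 2.69 to 3.61 CPM in the same groups, and PTPRC, HBE1, HBG1 and SPI1 were under 1 CPM in every library. CD34 made up most of the sum in FGF8+10 Pdgfra-low cells, with a mean of 14.7 CPM.

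Transcripts of the proteasome were most abundant in the FGF8+10 Pdgfra-low cells. The 36 genes together took 2640 ± 34.4 CPM in FGF8+10 Pdgfra-positive, 3593 ± 6.2 CPM in FGF8+10 Pdgfra-low, 2481 ± 7.62 CPM in Mock Pdgfra-positive and 2783 ± 20.5 CPM in Mock Pdgfra-low cells (mean ± SD, n = 2 each). Core genes summed to 1056 ± 13.1, 1404 ± 8.32, 945 ± 2.63 and 1070.0 ± 4.97 CPM in these groups, and regulatory genes to 1583 ± 21.3, 2189 ± 2.12, 1535 ± 4.99 and 1713 ± 25.5 CPM. Both FGF8+10 Pdgfra-low libraries lay above the other 6 libraries in 29 of the 36 genes, against 19.5% of all genes tested. The 7 exceptions were PSMA2, PSMA6, PSMB8, PSMB10, PSMD8, PSMD9 and PSMD10. In a bulk sample, a larger share of cells rich in these transcripts and more transcript in each cell cannot be told apart. The summed endothelial, blood, epithelial and pluripotency lists above were also highest in FGF8+10 Pdgfra-low libraries, and the cardiac list was lowest there. The limb mesenchyme list was highest in FGF8+10 Pdgfra-positive libraries (1738 and 1739 CPM, against 1345 and 1359 CPM in FGF8+10 Pdgfra-low). Its genes were split with FGF8+10 over Mock in Pdgfra-positive cells: of 13 tested, 6 rose and 6 fell. Of all genes 25.8% rose and 25.1% fell there. Between the gates under FGF8+10, 7 of the 13 were higher in Pdgfra-positive cells and 2 lower, where 19.6% and 21.7% of all genes were. The lateral plate mesoderm list was highest in Mock Pdgfra-low libraries (1119 and 1104 CPM, against 1017 and 1009 CPM in FGF8+10 Pdgfra-low). The mesothelial list was too (665.1 and 665.0 CPM, against 535.1 and 547.8 CPM). The part of these lists in the result was not tested.

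**Figure D1:**
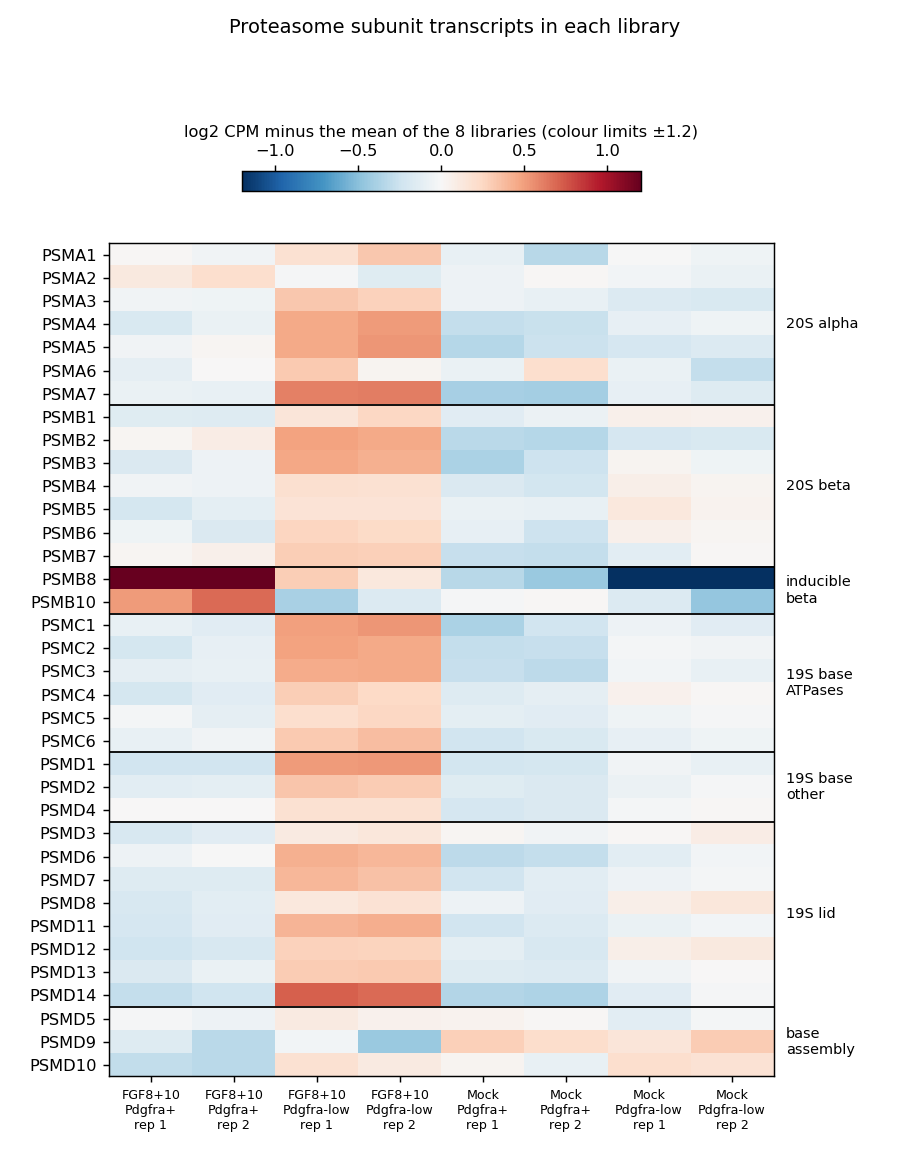
Level of each of 36 proteasome subunit genes in each of 8 libraries, as log2 CPM minus the gene's own mean, with genes in rows grouped by role and libraries in columns. Red is above and blue below the mean, and colours are clipped at ±1.2. The red FGF8+10 Pdgfra-low columns span core and regulatory rows, and 31 of the 36 genes had their highest mean CPM there. Of the others, PSMA2, PSMB8 and PSMB10 were highest in FGF8+10 Pdgfra-positive, PSMD9 in Mock Pdgfra-positive and PSMD10 in Mock Pdgfra-low libraries.

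Measured levels differed widely between the subunits of the constitutive particle. In TPM (the length-normalised level, from the table's exon lengths, mean of 8 libraries) they ran from 45.0 for PSMD1 to 406 for PSMA7, with a median of 116, among the 28 genes whose coding bases were less than 50% shared with another gene and which are neither inducible subunits nor base chaperones. PSMA7, PSMB4, PSMB5, PSMB7 and PSMC3 stood highest, at 406, 380, 356, 304 and 290 TPM on the per-length scale. The lengths are unions of all annotated exons, so a gene with long untranslated or alternative exons, such as PSMD1, reads low per length at 45.0 TPM although it had 137 CPM. PSMA1, PSMA2 and PSMA6, 3 of the 7 α subunits, had only 22.7, 1.81 and 2.72 TPM. Their coding bases (GENCODE release 29 on the same build) lie to 91.0%, 100.0% and 89.7% inside exons of another gene of the table. PSMD9 (68.3%), PSMB10 (60.0%), PSMC1 (47.7%, with NRDE2 on the opposite strand), PSMD7 (30.0%), PSMC5 (10.0%) and PSMD11 (7.2%) share coding bases too, and the other 27 genes share 0%. The counting dropped reads that lay on more than 1 gene, so the levels of these 9 genes are uncertain and those of PSMA1, PSMA2 and PSMA6 cannot be read as the amount of their transcripts.

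**Figure D2:**
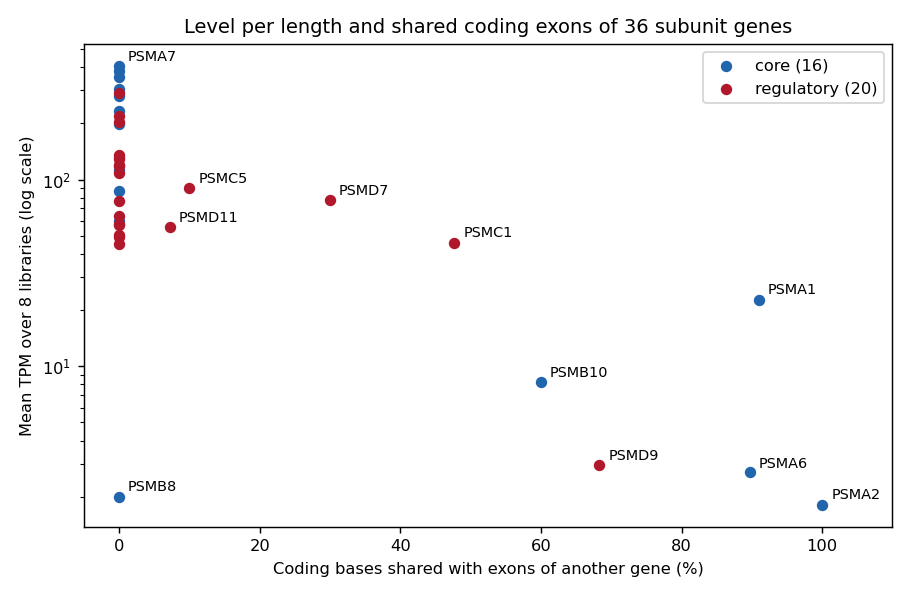
Mean TPM over 8 libraries (log axis) against the percent of coding bases that lie in exons of another gene, 1 point per gene, core genes in blue and regulatory genes in red. The low points are PSMA2, PSMA6, PSMD9, PSMB10 and PSMA1, all with over 50% shared, and PSMB8, at 2.00 TPM with no coding bases shared.

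The first question of the design is what FGF8+10 does to cells of each gate. In Pdgfra-positive cells FGF8+10 raised 15 of 36 proteasome genes, where 25.8% of all 22554 genes tested rose (edgeR's quasi-likelihood test, Benjamini-Hochberg adjusted p under 0.05). It lowered 4 of the 36, a smaller share than the 25.1% of all genes that fell. The median log2 fold change was 0.08 over the 36 genes and −0.01 over all genes. Core genes made up 9 of the 15 that rose and 1 of the 4 that fell. TMM factors were 1.055 to 1.065 under FGF8+10 and 0.936 to 0.952 under Mock, and scaling by library totals instead shifted the median of all genes up by 0.171 in Pdgfra-positive and by 0.161 in Pdgfra-low cells on the log2 scale. With that scaling 30 members were higher, where 36.2% of all genes were, and 0 lower in Pdgfra-positive cells, where 17.7% were, so the 4 falls hold relative to the bulk of genes and not to the total count.

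In Pdgfra-low cells the rise was broad: 28 of 36 genes rose with FGF8+10 over Mock, where 27.9% of all genes rose, and 1 fell, where 27.7% fell. The median log2 fold change was 0.35 over the 36 genes and −0.02 over all genes. Under library-total scaling 33 were higher, where 36% of all genes were, and 0 lower, where 20.7% were. The 28 comprised 12 of 16 core and 16 of 20 regulatory genes. In 31 of 36 genes both FGF8+10 libraries lay above both Mock libraries, against 37.4% of all genes. The sizes were modest, since 6 of the 36 rose at least 1.5-fold, where 14.6% of all genes did.

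**Figure D3:**
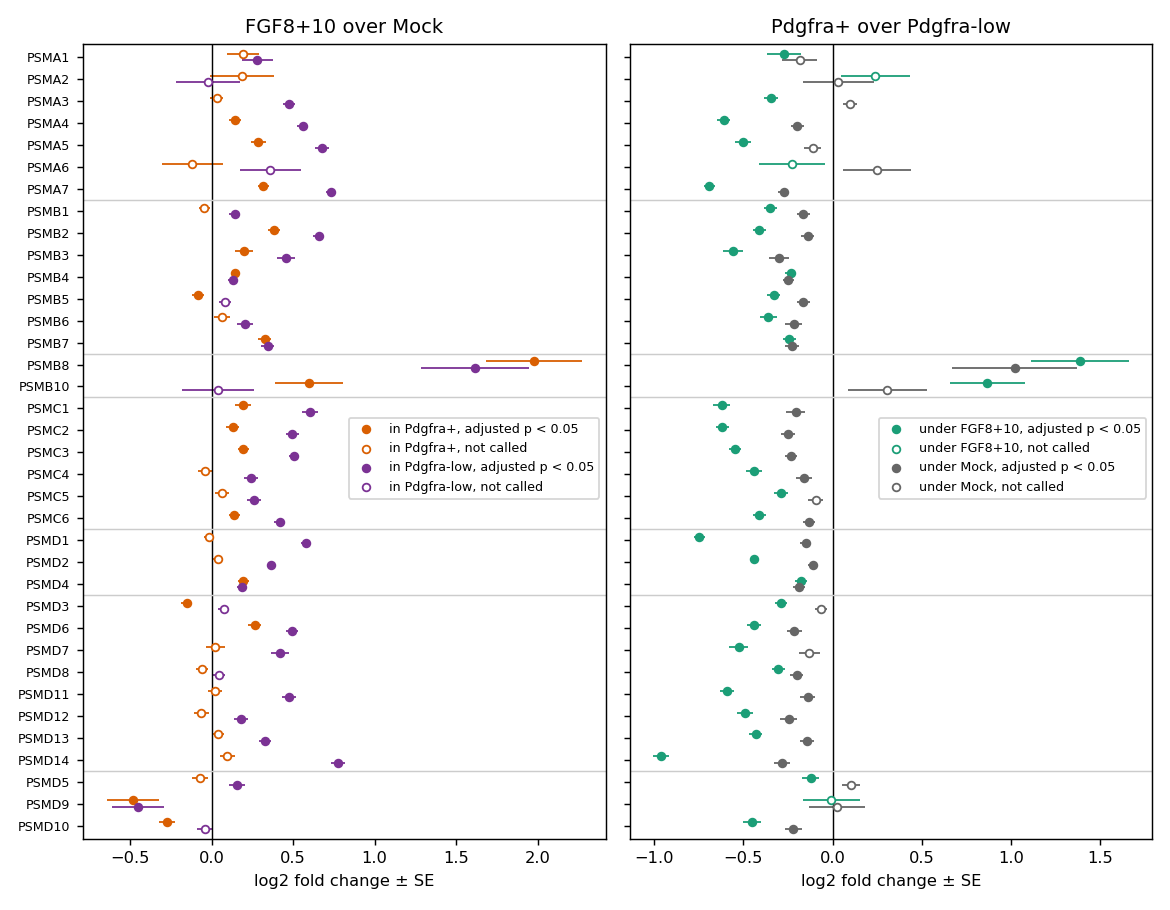
Log2 fold change ± SE of each of 36 genes for FGF8+10 over Mock (left: orange, Pdgfra-positive; purple, Pdgfra-low) and for Pdgfra-positive over Pdgfra-low (right: green, FGF8+10; grey, Mock), filled where the adjusted p was under 0.05. The orange points lie left of the purple ones for most regulatory genes, most of all PSMD14, at 0.10 in Pdgfra-positive and 0.78 in Pdgfra-low cells, and the 4 falls among the orange points, PSMD9, PSMD10, PSMD3 and PSMB5, were no longer called or reversed when libraries were scaled by their totals.

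Among the α subunits, PSMA4, PSMA5 and PSMA7 rose with FGF8+10 in Pdgfra-positive cells, and the same 3, PSMA3 and the poorly counted PSMA1 did so in Pdgfra-low cells. The call of PSMA1 was lost without FGF8+10 Pdgfra-low replicate 2 or Mock Pdgfra-low replicate 2 (adjusted p of 0.14 and 0.0701). PSMA7 (chr20:62136733-62143440, minus strand), the α4 subunit, had 125 and 124 CPM in FGF8+10 Pdgfra-positive, 200.4 and 202 CPM in FGF8+10 Pdgfra-low, 100.4 and 99.6 CPM in Mock Pdgfra-positive and 124 and 118 CPM in Mock Pdgfra-low libraries. The FGF8+10 Pdgfra-low pair stood far above the rest, and the Mock Pdgfra-positive pair below all others. Its log2 fold change for FGF8+10 over Mock was 0.32 ± 0.032 (SE) in Pdgfra-positive and 0.73 ± 0.031 in Pdgfra-low cells, with edgeR adjusted p of 1.01e-11 and 6.67e-25. PSMA5 (chr1:109399042-109426448, minus strand), the α5 subunit, had 62.8 and 65.8, 88.7 and 93.4, 51.2 and 54.2, and 56.2 and 57.7 CPM in FGF8+10 Pdgfra-positive, FGF8+10 Pdgfra-low, Mock Pdgfra-positive and Mock Pdgfra-low libraries. Here too no FGF8+10 library overlapped a Mock library. The log2 fold change of PSMA5 was 0.29 ± 0.045 in Pdgfra-positive and 0.68 ± 0.044 in Pdgfra-low cells (edgeR adjusted p of 6.08e-07 and 5.26e-18). PSMA3, which is α7, stood at 0.03 ± 0.039 in Pdgfra-positive cells and rose by 0.47 ± 0.039 on the log2 scale in Pdgfra-low cells (edgeR adjusted p 1.05e-14). PSMA2 and PSMA6 passed no test in any comparison.

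Of the 7 constitutive β genes, 4 rose and 1 fell with FGF8+10 in Pdgfra-positive cells, with a median log2 fold change of 0.15, and 6 rose in Pdgfra-low cells, all but PSMB5, with a median of 0.20. The 7 α genes had medians of 0.19 and 0.47, a difference between the rings that was not tested. PSMB2, the non-catalytic β4 subunit, had 97.8 and 102 CPM in FGF8+10 Pdgfra-positive, 134 and 131 CPM in FGF8+10 Pdgfra-low, 77.0 and 75.9 CPM in Mock Pdgfra-positive and 83.5 and 84.9 CPM in Mock Pdgfra-low libraries. All 4 FGF8+10 libraries exceeded all 4 Mock libraries, and the log2 fold change was 0.39 ± 0.037 in Pdgfra-positive and 0.66 ± 0.036 in Pdgfra-low cells (edgeR adjusted p of 1.6e-12 and 8.04e-21). PSMB3 (β3) had 39.0 and 42.2 CPM in FGF8+10 Pdgfra-positive, 60.5 and 59.2 CPM in FGF8+10 Pdgfra-low, 33.9 and 36.9 CPM in Mock Pdgfra-positive and 44.9 and 42.3 CPM in Mock Pdgfra-low libraries. It rose by 0.20 ± 0.056 in Pdgfra-positive and by 0.46 ± 0.054 in Pdgfra-low cells on the log2 scale (edgeR adjusted p of 0.00271 and 4.8e-10). Without FGF8+10 Pdgfra-positive replicate 2 or Mock Pdgfra-positive replicate 1, the Pdgfra-positive call was lost (adjusted p of 0.0704 and 0.0885). PSMB4 (β7) rose by 0.15 ± 0.030 and 0.13 ± 0.030 in Pdgfra-positive and Pdgfra-low cells. PSMB1 (β6) stood at −0.04 ± 0.035 in Pdgfra-positive cells, positive under library-total scaling, and rose by 0.14 ± 0.034 in Pdgfra-low cells, a call lost without FGF8+10 Pdgfra-low replicate 2 (adjusted p 0.0604).

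The 3 constitutive catalytic subunits did not move alike. PSMB7 (chr9:124353465-124415444, minus strand), the β2 subunit with trypsin-like activity, had 106 and 108 CPM in FGF8+10 Pdgfra-positive, 127 and 126 CPM in FGF8+10 Pdgfra-low, 85.4 and 85.2 CPM in Mock Pdgfra-positive and 94.8 and 105 CPM in Mock Pdgfra-low libraries. FGF8+10 exceeded Mock in both gates, by 0.33 ± 0.038 in Pdgfra-positive and 0.34 ± 0.037 in Pdgfra-low cells on the log2 scale (edgeR adjusted p of 6.13e-10 and 5.86e-11). PSMB6 (chr17:4796144-4798502, plus strand), the β1 subunit with caspase-like activity, had 62.0 and 57.1, 77.1 and 75.7, 60.1 and 54.1, and 67.2 and 65.4 CPM in FGF8+10 Pdgfra-positive, FGF8+10 Pdgfra-low, Mock Pdgfra-positive and Mock Pdgfra-low libraries. Its Pdgfra-positive libraries of the 2 treatments overlapped, and the rise was called in Pdgfra-low cells, at 0.20 ± 0.047 (edgeR adjusted p 0.000203). PSMB5 (chr14:23016543-23035230, minus strand), the β5 subunit with chymotrypsin-like activity and the main target of bortezomib, had 91.8 and 97.8 CPM in FGF8+10 Pdgfra-positive, 119.4 and 119.2 CPM in FGF8+10 Pdgfra-low, 101.0 and 100.3 CPM in Mock Pdgfra-positive and 116 and 109.5 CPM in Mock Pdgfra-low libraries. The groups did not overlap within either gate, but the differences were small. PSMB5 fell by 0.09 ± 0.037 on the log2 scale in Pdgfra-positive cells (edgeR adjusted p 0.0475), and its log2 fold change in Pdgfra-low cells was 0.08 ± 0.036 (adjusted p 0.0531). That fall was lost without FGF8+10 Pdgfra-positive replicate 1 (adjusted p 0.632) and in 4 other fits that left out 1 library, of replicates 1 and 2 of FGF8+10 Pdgfra-low and of Mock Pdgfra-positive (adjusted p of 0.0977, 0.0975, 0.14 and 0.0973), and it reversed to 0.09 when libraries were scaled by their totals.

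The inducible subunits had another order of groups. PSMB8 (chr6:32840717-32844679, minus strand, in the MHC class II region), the β5i subunit, had 2.67 and 3.30 CPM in FGF8+10 Pdgfra-positive, 1.21 and 1.07 CPM in FGF8+10 Pdgfra-low, 0.784 and 0.726 CPM in Mock Pdgfra-positive and 0.361 and 0.380 CPM in Mock Pdgfra-low libraries. No group overlapped another, and the FGF8+10 Pdgfra-positive pair was highest. These values rest on 180 and 224, 64 and 63, 35 and 35, and 22 and 23 counts in the same groups. FGF8+10 raised PSMB8 3.94-fold in Pdgfra-positive cells (log2 1.98 ± 0.29, edgeR adjusted p 1.39e-07) and 3.06-fold in Pdgfra-low cells (log2 1.61 ± 0.33, edgeR adjusted p 4.5e-05). The difference between these effects was 0.37 ± 0.45 on the log2 scale and did not pass the test (edgeR adjusted p 0.641). Both were the largest rises of any member, and the library-total scaling kept their direction.

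PSMB10 (chr16:67934506-67936864, minus strand), the β2i subunit, had 3.51 and 3.96 CPM in FGF8+10 Pdgfra-positive, 1.89 and 2.20 CPM in FGF8+10 Pdgfra-low, 2.44 and 2.49 CPM in Mock Pdgfra-positive and 2.20 and 1.79 CPM in Mock Pdgfra-low libraries. The FGF8+10 Pdgfra-positive pair was again highest, while the 2 Pdgfra-low groups overlapped. It rose 1.51-fold with FGF8+10 in Pdgfra-positive cells (log2 0.60 ± 0.21, edgeR adjusted p 0.0146) and had a log2 fold change of 0.04 ± 0.22 in Pdgfra-low cells. The call was lost without FGF8+10 Pdgfra-positive replicate 2, Mock Pdgfra-positive replicate 1 or Mock Pdgfra-positive replicate 2 (adjusted p of 0.11, 0.0608 and 0.0518), and 60.0% of its coding bases are shared with a same-strand gene. PSMB9 (chr6:32844136-32859851, plus strand), the β1i subunit next to PSMB8, stayed outside the count minimum, with 0 and 4 counts in FGF8+10 Pdgfra-positive, 2 and 0 in FGF8+10 Pdgfra-low, 0 and 4 in Mock Pdgfra-positive and 0 and 0 in Mock Pdgfra-low libraries. A count of 0 there allows up to 0.0986 and 0.0992 CPM in the Mock Pdgfra-low pair, with 6 counts taken as 3 read pairs and covering counting error only. PSMB8 was the member nearest the minimum from inside. PSMA8, the testis α subunit, had 0 counts in every library, and PSMB11, the thymus β subunit, had 1 count in all, in an FGF8+10 Pdgfra-positive library.

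Set against their constitutive counterparts per length, the inducible subunits were a small share. PSMB8 was 1.4 ± 0.15% of PSMB5 in FGF8+10 Pdgfra-positive, 0.426 ± 0.035% in FGF8+10 Pdgfra-low, 0.334 ± 0.016% in Mock Pdgfra-positive and 0.147 ± 0.011% in Mock Pdgfra-low cells (ratio of TPM, mean ± SD, n = 2 each). PSMB10 was 3.84 ± 0.26, 1.78 ± 0.2, 3.18 ± 0.05 and 2.21 ± 0.48% of PSMB7 in these groups. Reads on the 60.0% shared coding bases of PSMB10 were dropped, while PSMB7 shares 0.0%, so this ratio may read low. The ratio of PSMB8 to PSMB5 depends on their union exon lengths of 3480 and 1549 bases. The ratio of PSMB8 to PSMB5 was thus highest in FGF8+10 Pdgfra-positive libraries, where the pooled subunits were well below the FGF8+10 Pdgfra-low level.

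**Figure D4:**
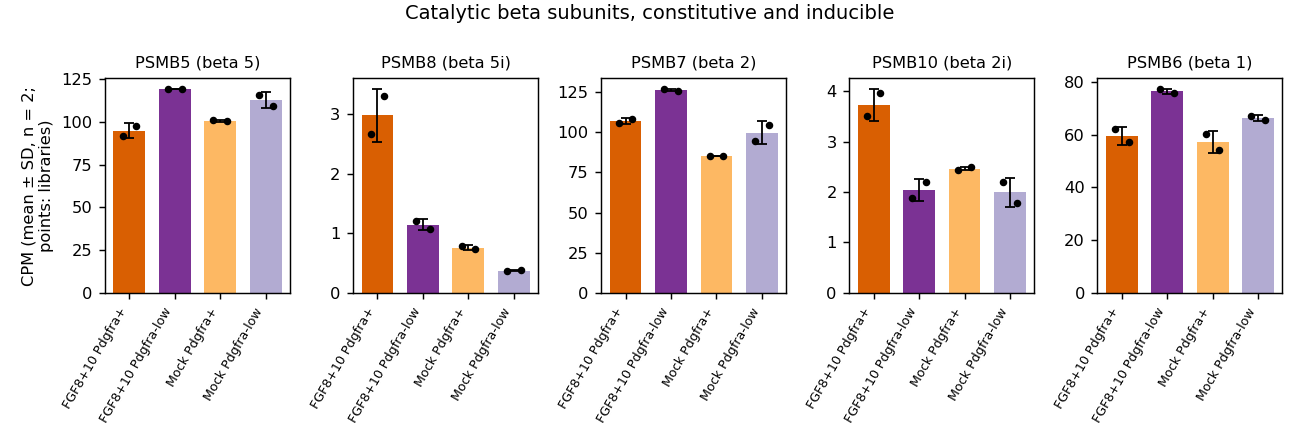
CPM of the constitutive catalytic β subunits PSMB5, PSMB7 and PSMB6 and of the inducible PSMB8 and PSMB10 in the 4 groups (bars, mean of 2 libraries; error bars, SD; points, libraries; each axis starts at 0). The constitutive genes are highest in FGF8+10 Pdgfra-low cells, while PSMB8, at 2.67 and 3.30 CPM, and PSMB10, at 3.51 and 3.96 CPM, are highest in FGF8+10 Pdgfra-positive cells.

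Genes that work with the inducible subunits were taken from a list of MHC class I presentation and interferon response genes, of which 20 of 21 were tested. FGF8+10 raised 10 and lowered 4 of the 20 in Pdgfra-positive cells and raised 10 and lowered 7 in Pdgfra-low cells. Of all genes 25.8% rose and 25.1% fell in Pdgfra-positive and 27.9% rose and 27.7% fell in Pdgfra-low cells, so the counts that fell were near the shares of all genes. In Pdgfra-positive against Pdgfra-low cells, 10 were higher and 3 lower under FGF8+10, where 19.6% and 21.7% of all genes were, and 8 were higher and 3 lower under Mock, where 12.4% and 13.4% were. IRF1, a transcription factor of the interferon response, had 14.1 and 13 CPM in FGF8+10 Pdgfra-positive, 7.94 and 7.30 CPM in FGF8+10 Pdgfra-low, 7.86 and 6.54 CPM in Mock Pdgfra-positive and 5.11 and 5.66 CPM in Mock Pdgfra-low libraries, so its highest pair was that of PSMB8. It rose by 0.91 ± 0.12 and 0.50 ± 0.13 on the log2 scale with FGF8+10 in Pdgfra-positive and Pdgfra-low cells (edgeR adjusted p of 1.02e-08 and 0.000665). ERAP2, an aminopeptidase that trims class I peptides, rose by 2.11 ± 0.16 and 1.73 ± 0.17, and TAP1, a subunit of the peptide transporter, rose by 1.33 ± 0.50 in Pdgfra-positive cells, with under 1 CPM in every library. Other members of the list went the other way. ERAP1, a second trimming enzyme, fell by 0.62 ± 0.033 in Pdgfra-positive and by 1.09 ± 0.033 in Pdgfra-low cells, and NLRC5, the transactivator of class I genes, fell by 2.64 ± 0.56 and 2.46 ± 0.55, with at most 1.19 CPM in any library. Under library-total scaling the list had 14 higher and 3 lower in Pdgfra-positive and 10 higher and 3 lower in Pdgfra-low cells, with the genes named here in the same direction. At that scaling 36.2% of all genes were higher and 17.7% lower in Pdgfra-positive cells, and 36% and 20.7% in Pdgfra-low cells.

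PSME1, which with PSME2 forms the interferon-inducible 11S activator, had 59.3 and 60.8 CPM in FGF8+10 Pdgfra-positive, 39.1 and 41.6 CPM in FGF8+10 Pdgfra-low, 39.5 and 40.0 CPM in Mock Pdgfra-positive and 36.1 and 34.1 CPM in Mock Pdgfra-low libraries. The FGF8+10 Pdgfra-positive pair stood above all others. It rose by 0.60 ± 0.053 in Pdgfra-positive and 0.20 ± 0.054 in Pdgfra-low cells on the log2 scale with FGF8+10, a difference of 0.39 ± 0.076 (edgeR adjusted p 5.92e-05). Its partner PSME2 did not share this order, with a log2 fold change of −0.05 ± 0.0508 in Pdgfra-positive cells (0.13 under library-total scaling) and a rise of 0.25 ± 0.0505 in Pdgfra-low cells. The activators of other classes, PSME3 and PSME4, fell by 0.16 and 0.32 in Pdgfra-positive and rose by 0.29 and 0.18 in Pdgfra-low cells, and the fall of PSME3 became 0.01, not called, under library-total scaling. Over the list of activators, inhibitor and adaptors, 3 rose and 3 fell of 7 in Pdgfra-positive cells, and 5 rose and 1 fell in Pdgfra-low cells. Of all genes 25.8% rose and 25.1% fell in Pdgfra-positive cells, and 27.9% rose and 27.7% fell in Pdgfra-low cells. Library-total scaling gave 4 higher and 2 lower, and 6 higher and 0 lower, where 36.2% and 17.7%, and 36% and 20.7%, of all genes were.

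**Figure D5:**
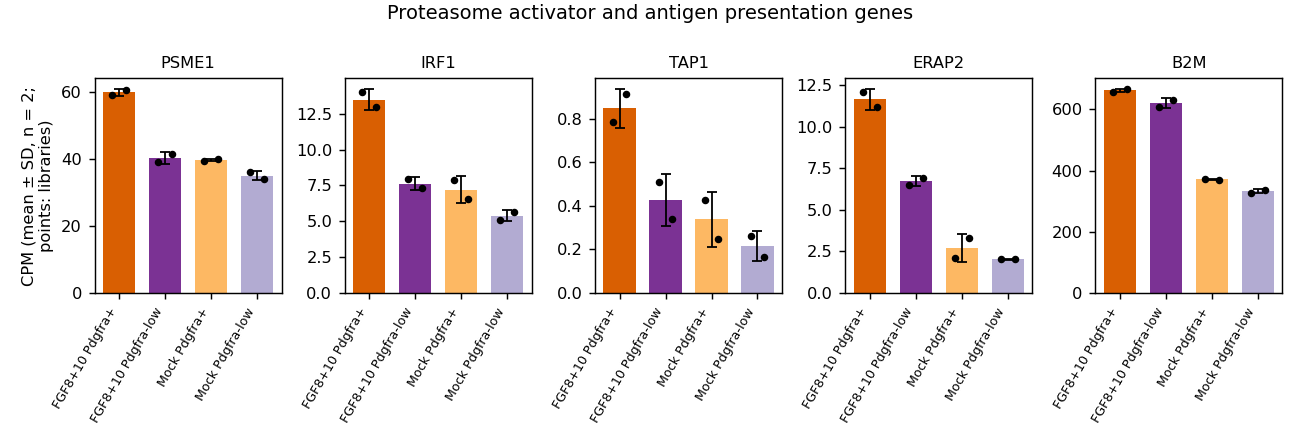
CPM of PSME1, IRF1, TAP1, ERAP2 and B2M, genes of the 11S activator and of class I presentation, in the 4 groups (bars, mean of 2 libraries; error bars, SD; points, libraries; each axis starts at 0). The FGF8+10 Pdgfra-positive pair is the highest in each panel, for IRF1 at 14.1 and 13 CPM.

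Of the 6 ATPases of the 19S base, PSMC1, PSMC2, PSMC3 and PSMC6 rose with FGF8+10 in Pdgfra-positive cells, by 0.13 to 0.19 on the log2 scale, while PSMC4 stood at −0.04 ± 0.044, positive under library-total scaling, and PSMC5 at 0.06 ± 0.042. All 6 rose in Pdgfra-low cells, by 0.24 to 0.61, with a median of 0.46. In Pdgfra-positive cells the call of PSMC1 was lost without Mock Pdgfra-positive replicate 1 (adjusted p 0.0945), and that of PSMC2 without FGF8+10 Pdgfra-positive replicate 2 (adjusted p 0.154). Of the base scaffolds, PSMD1 (chr2:231056845-231173116, plus strand) had 114.0 and 114.0 CPM in FGF8+10 Pdgfra-positive, 190.5 and 192 CPM in FGF8+10 Pdgfra-low, 115 and 116 CPM in Mock Pdgfra-positive and 129.7 and 126 CPM in Mock Pdgfra-low libraries. The FGF8+10 Pdgfra-low pair stood far above the other libraries, and the Mock Pdgfra-low pair lay somewhat above the Pdgfra-positive libraries, which were close together. The log2 fold change with FGF8+10 was −0.02 ± 0.032 in Pdgfra-positive cells, or 0.16 under library-total scaling. In Pdgfra-low cells it was 0.58 ± 0.030 (edgeR adjusted p 2.41e-21). PSMD2, the other large scaffold and the gene with the highest count of the set, rose by 0.37 ± 0.027 in Pdgfra-low cells on the same scale. PSMD4, a ubiquitin receptor, rose in both gates, by 0.20 ± 0.033 in Pdgfra-positive and 0.19 ± 0.033 in Pdgfra-low cells.

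In the lid, PSMD14 (chr2:161308425-161411717, plus strand), the deubiquitinase that cuts ubiquitin chains off substrates, had 55.8 and 57.4 CPM in FGF8+10 Pdgfra-positive, 112 and 109 CPM in FGF8+10 Pdgfra-low, 53.1 and 52.6 CPM in Mock Pdgfra-positive and 61.6 and 67.1 CPM in Mock Pdgfra-low libraries. The FGF8+10 Pdgfra-low pair stood alone. Its log2 fold change was 0.10 ± 0.045 in Pdgfra-positive cells (edgeR adjusted p 0.0684). Its rise of 1.71-fold in Pdgfra-low cells (log2 0.78 ± 0.042, edgeR adjusted p 9.92e-21) was the largest of any member except PSMB8. PSMD6, PSMD7, PSMD11, PSMD12 and PSMD13, structural lid subunits, rose in Pdgfra-low cells by 0.18 to 0.49, and of these PSMD6 also rose in Pdgfra-positive cells, by 0.26 ± 0.040. PSMD8 was not called in either gate, at −0.06 ± 0.037 in Pdgfra-positive cells, positive under library-total scaling, and 0.04 ± 0.036 in Pdgfra-low cells. PSMD3 (chr17:39980807-39997959, plus strand) had 100.3 and 104 CPM in FGF8+10 Pdgfra-positive, 124 and 126 CPM in FGF8+10 Pdgfra-low, 116 and 111 CPM in Mock Pdgfra-positive and 116 and 121 CPM in Mock Pdgfra-low libraries. It fell by 0.15 ± 0.035 in Pdgfra-positive cells (edgeR adjusted p 0.000245), which reversed to 0.02 under library-total scaling, and stood at 0.07 ± 0.034 in Pdgfra-low cells.

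PSMD5, PSMD9 and PSMD10 carry subunit names but are chaperones that assemble the base and leave the finished particle. PSMD9 (chr12:121888732-121918297, plus strand) had 4.49 and 3.99 CPM in FGF8+10 Pdgfra-positive, 4.88 and 3.65 CPM in FGF8+10 Pdgfra-low, 6.09 and 5.77 CPM in Mock Pdgfra-positive and 5.52 and 6.14 CPM in Mock Pdgfra-low libraries. All 4 FGF8+10 libraries lay below all 4 Mock libraries, and it fell by 0.48 ± 0.16 in Pdgfra-positive and by 0.45 ± 0.16 in Pdgfra-low cells on the log2 scale (edgeR adjusted p of 0.00977 and 0.0141), calls that library-total scaling lost. The first was lost without FGF8+10 Pdgfra-positive replicate 2 or Mock Pdgfra-positive replicate 1 (adjusted p of 0.108 and 0.0551), and the second without FGF8+10 Pdgfra-low replicate 2 or Mock Pdgfra-low replicate 2 (adjusted p of 0.265 and 0.116). PSMD10 (chrX:108084207-108091549, minus strand), also known as gankyrin, had 44.5 and 43.6 CPM in FGF8+10 Pdgfra-positive, 61.9 and 58.8 CPM in FGF8+10 Pdgfra-low, 55.6 and 51.2 CPM in Mock Pdgfra-positive and 62.8 and 61.5 CPM in Mock Pdgfra-low libraries. The FGF8+10 Pdgfra-positive pair was lowest, and the fall there was 0.27 ± 0.050 (edgeR adjusted p 6.34e-06), again not called with library-total scaling. PSMD5 rose by 0.16 ± 0.048 in Pdgfra-low cells, a call lost without replicate 1 of FGF8+10 Pdgfra-low (adjusted p 0.0755) or of Mock Pdgfra-low (adjusted p 0.126).

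The second question is how the sorted populations differ under each treatment. Under FGF8+10, Pdgfra-positive cells had lower levels than Pdgfra-low cells in 31 of 36 genes, where 21.7% of all genes were lower, and higher levels in 2, where 19.6% were higher. The 2 were PSMB8 and PSMB10. The median log2 fold change was −0.41 over the members and 0.01 over all genes, and 7 members were at least 1.5-fold lower, where 6.85% of all genes were. In 32 of 36 genes both Pdgfra-positive libraries lay below both Pdgfra-low libraries, against 33.4% of all genes. This comparison shares its Pdgfra-low libraries with the FGF8+10 over Mock comparison in that gate, so the 2 are not separate evidence.

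Among the lower genes PSMD14 differed most under FGF8+10, at 0.513 of its Pdgfra-low level in Pdgfra-positive cells (log2 −0.96 ± 0.043, edgeR adjusted p 1.69e-23). PSMD1 followed at −0.75 ± 0.030 and PSMA7 at −0.69 ± 0.031 (edgeR adjusted p of 8.67e-25 and 2.26e-23). The ATPases PSMC1 and PSMC2 were lower by the same order, at −0.62 ± 0.049 and −0.62 ± 0.037. In the other direction, PSMB8 was 2.61-fold higher in Pdgfra-positive cells (log2 1.39 ± 0.27, edgeR adjusted p 3.99e-05) and PSMB10 was 1.82-fold higher (log2 0.87 ± 0.21, edgeR adjusted p 0.000608). PSMA2, PSMA6 and PSMD9, which were counted at under 20 CPM, passed no test here.

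Under Mock the contrast of the populations was smaller. Pdgfra-positive cells had lower levels in 24 of 36 genes, where 13.4% of all genes were lower, and a higher level in 1, PSMB8, where 12.4% were higher. The median log2 fold change was −0.16 over the members and 0.02 over all genes. The largest called falls were those of PSMB3 at −0.30 ± 0.057, PSMD14 at −0.28 ± 0.045 and PSMA7 at −0.27 ± 0.032 (edgeR adjusted p of 3.92e-05, 1.98e-06 and 2.66e-09). Both Mock Pdgfra-positive libraries lay below both Mock Pdgfra-low libraries in each of the 3. All 7 constitutive β genes were lower in Pdgfra-positive cells under Mock. Of the α genes PSMA4 and PSMA7 were, while PSMA5 stood at −0.11 ± 0.046 (edgeR adjusted p 0.0686), and the 2 rings were not tested against each other. The higher level of PSMB8 was 2.03-fold (log2 1.02 ± 0.35, edgeR adjusted p 0.0264). Its call was lost without any 1 of the 4 Mock libraries (adjusted p of 0.11 and 0.0653 without replicates 1 and 2 of Mock Pdgfra-positive, and of 0.111 and 0.0879 without replicates 1 and 2 of Mock Pdgfra-low).

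The third question is whether the FGF8+10 effect differed between the gates. The effect was lower in Pdgfra-positive than in Pdgfra-low cells for 25 of 36 genes, where 14% of all genes had a lower effect, and higher for 0 of 36, where 12% had a higher one. The median difference was −0.25 over the members and −0.01 over all genes on the log2 scale. It comprised 8 of 16 core and 17 of 20 regulatory genes, among them all 6 ATPases. PSMD14 had the largest difference at −0.68 ± 0.062, followed by PSMD1 at −0.60 ± 0.044 and PSMD11 at −0.45 ± 0.058 (edgeR adjusted p of 2.28e-12, 2.91e-15 and 2.15e-08). PSMD11, a lid scaffold, had 65.0 and 68.1 CPM in FGF8+10 Pdgfra-positive, 99.3 and 101.5 CPM in FGF8+10 Pdgfra-low, 64.1 and 67.1 CPM in Mock Pdgfra-positive and 71.1 and 73.4 CPM in Mock Pdgfra-low libraries. Its Pdgfra-positive libraries of the 2 treatments overlapped. PSMB4, PSMB7 and PSMD4 had nearly equal effects in both gates, with differences of 0.01 ± 0.043, −0.02 ± 0.053 and 0.01 ± 0.046 (SE) on the log2 scale.

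Further lists of the machinery are given as counts, to be read against the 25.8% of all genes that rose and 25.1% that fell in Pdgfra-positive cells and the 27.9% and 27.7% in Pdgfra-low cells, or 36.2% and 17.7%, and 36% and 20.7%, under library-total scaling. Of 8 further subunits and assembly factors, 3 rose and 2 fell with FGF8+10 in Pdgfra-positive cells, and 4 rose and 1 fell in Pdgfra-low cells. POMP, the chaperone that completes the 20S core, had 52.9 and 51.6 CPM in FGF8+10 Pdgfra-positive, 82.6 and 80.9 CPM in FGF8+10 Pdgfra-low, 42.7 and 45.6 CPM in Mock Pdgfra-positive and 45.6 and 48.0 CPM in Mock Pdgfra-low libraries. Its rise of 0.80 ± 0.047 in Pdgfra-low cells (edgeR adjusted p 1.09e-19) stands beside that of 0.78 ± 0.042 for PSMD14. ADRM1, a ubiquitin receptor of the base, rose by 0.36 ± 0.062 in Pdgfra-low cells and was lower in Pdgfra-positive than in Pdgfra-low cells under FGF8+10, at −0.65 ± 0.062. PSMG1, a chaperone of the α ring, fell by 0.53 ± 0.058 in Pdgfra-positive cells and stood at −0.03 ± 0.056 in Pdgfra-low cells, or 0.13 under library-total scaling.

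Among 12 tested deubiquitinases, ligases and shuttle factors that bind the proteasome, 3 rose and 8 fell with FGF8+10 in Pdgfra-positive cells, and 4 rose and 5 fell in Pdgfra-low cells, against 4 and 2, and 7 and 0, under library-total scaling. UCHL5, a deubiquitinase that docks on ADRM1, rose most, by 0.48 ± 0.064 in Pdgfra-positive and 0.74 ± 0.061 in Pdgfra-low cells. USP14, the deubiquitinase on PSMD2, fell by 0.24 ± 0.038 in Pdgfra-positive cells, a call lost under library-total scaling, and rose by 0.19 ± 0.037 in Pdgfra-low cells. Of 10 genes of ubiquitin and its activation, 8 rose and 1 fell in Pdgfra-positive and 7 rose and 1 fell in Pdgfra-low cells (9 and 0, and 10 and 0, under library-total scaling), led by the conjugating enzyme UBE2D1 at 0.59 ± 0.067 and 0.72 ± 0.064. Of 9 genes of p97, the segregase that hands substrates to the proteasome, and its cofactors, 3 rose and 4 fell in Pdgfra-positive and 3 rose and 3 fell in Pdgfra-low cells (5 and 4, and 5 and 3, under library-total scaling), close to the shares of all genes at TMM scaling in Pdgfra-low cells.

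Proteasome genes share the transcription factor NFE2L1, which raises them together when proteasome activity is blocked and binds antioxidant-type elements. Of 10 genes of its pathway, 1 rose and 6 fell with FGF8+10 in Pdgfra-positive and 3 rose and 5 fell in Pdgfra-low cells (2 and 5, and 5 and 4, under library-total scaling). Of all genes 25.8% rose and 25.1% fell in Pdgfra-positive cells, and 27.9% and 27.7% in Pdgfra-low cells. Under library-total scaling these shares were 36.2% and 17.7%, and 36% and 20.7%. The 3 that rose in Pdgfra-low cells were near the share of all genes. NFE2L1 itself had 198 and 194 CPM in FGF8+10 Pdgfra-positive, 222 and 239 CPM in FGF8+10 Pdgfra-low, 201 and 205 CPM in Mock Pdgfra-positive and 218 and 217 CPM in Mock Pdgfra-low libraries, with a rise of 0.08 ± 0.029 in Pdgfra-low cells. MAFK, a small MAF partner, fell by 1.11 ± 0.091 in Pdgfra-positive and by 1.25 ± 0.091 in Pdgfra-low cells, and NFE2L2, the related factor of the oxidative stress response, rose by 0.36 ± 0.043 and 0.69 ± 0.043.

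Promoter windows from RefSeq (GRCh38.p14, 250 bases before to 50 after each start) were found for 31 of the 36 genes, in 38 windows, and not for PSMA7, PSMB1, PSMB6, PSMB7 and PSMD4. They were searched on both strands for TGACNNNGC, the core of the antioxidant-type element, and for CCAAT. The first occurred in 9 of the 31 genes (PSMA4, PSMB3, PSMC4, PSMC5, PSMD1, PSMD3, PSMD5, PSMD9 and PSMD12) and in 23.7% of their windows, against 13.3% of all 35116 windows. The median log2 fold change for FGF8+10 over Mock was −0.04 in the 9 genes and 0.14 in the 22 without a match in Pdgfra-positive cells, and 0.24 and 0.42 in Pdgfra-low cells, a description that was not tested. CCAAT occurred in 16 of the 31 genes and in 42.1% of their windows, against 34.6% of all windows. The median log2 fold change was 0.11 in these 16 genes and 0.04 in the 15 others in Pdgfra-positive cells. In Pdgfra-low cells the medians were 0.47 and 0.33, and neither difference was tested. The 16 include PSMD3, PSMD10 and PSMB5, called lower in Pdgfra-positive cells at TMM scaling, and PSMD8, called in neither gate. The sequences below show the match in capitals with its flanks, on the strand of the gene, for members that moved in different ways: PSMB3 rose in both gates, PSMD12 and PSMD5 rose in Pdgfra-low cells, PSMD3 fell in Pdgfra-positive cells and PSMD9 in both (relative to the bulk of genes), and PSMD14 and PSMA5 were among the largest rises and hold CCAAT. The windows are chr17:38752619-38752663 (plus strand) for PSMB3, chr17:67366716-67366760 (minus strand) for PSMD12, chr9:120843030-120843074 (minus strand) for PSMD5, chr17:39980752-39980796 (plus strand) for PSMD3, chr12:121888670-121888714 (plus strand) for PSMD9, chr2:161308359-161308399 (plus strand) for PSMD14 and chr1:109426480-109426520 (minus strand) for PSMA5, and each lies before the start.
PSMB3: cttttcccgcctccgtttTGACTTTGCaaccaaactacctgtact
PSMD12: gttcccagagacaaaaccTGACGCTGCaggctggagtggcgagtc
PSMD5: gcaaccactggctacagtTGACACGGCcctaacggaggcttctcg
PSMD3: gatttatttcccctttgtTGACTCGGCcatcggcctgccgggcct
PSMD9: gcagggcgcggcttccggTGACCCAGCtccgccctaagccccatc
PSMD14: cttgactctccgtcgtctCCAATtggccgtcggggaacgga
PSMA5: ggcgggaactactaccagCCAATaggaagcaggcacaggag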

How the data were processed

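For the 8 libraries the authors deposited raw counts, in 1 table with a row per gene name. Per the file headers, featureCounts 2.0.3 counted exons of GENCODE release 42 by gene name, paired-end, with no strand set; both mates were counted, and reads on more than 1 gene or place were dropped. The submitters' processing notes name FastQC 0.11.8, HISAT2 2.1.0 and the build GRCh38. For trimming, nothing is given in the sources used here.

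Libraries were grouped by their labels. In R 4.3.3, edgeR 4.0.16 (limma 3.58.1) fitted 1 robust quasi-likelihood model with a mean per group (4 residual degrees of freedom) to the 22554 of 39416 expressed genes that passed filterByExpr, with TMM scaling. In all, 5 two-sided contrasts were tested, with Benjamini-Hochberg adjustment over all genes of a contrast at 0.05. The SE is the log2 fold change divided by the square root of F. The common biological coefficient of variation was 4.06%. Chi-square per gene between replicates was 3.44 to 3.74, which double counting of mates inflates. The fit was tested on simulated data. DESeq2 1.42.0, other scalings and filters, halved counts, the replicate number as a block, a stricter threshold and leaving out each library were alternatives. TPM used the table's exon lengths.

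Members and lists were chosen with earlier results of these data known. Every member is named; values in every library are given for the catalytic and inducible β subunits and, among called members, for the 5 largest rises and falls with FGF8+10 and the 3 largest in other contrasts, and for chosen pathway genes, where at most the 4 largest called per list and contrast are named. B2M and the marker genes were added after their values were seen. From the list of blood markers, 1 gene is not reported here and was left out of its sum. The floor for a count of 0 reflects counting error alone, and PCR copies of a molecule count as separate reads.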

Additional observations from a re-analysis of the deposited data

Results flagged for a closer look

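The FGF8+10 effect differed between the gates in 25 members, each by the test of the difference itself (edgeR's quasi-likelihood test, adjusted p under 0.05), and in every one the effect was lower in Pdgfra-positive than in Pdgfra-low cells. On the log2 scale the differences among the lid and base scaffolds were −0.68 for PSMD14, −0.6 for PSMD1, −0.45 for PSMD11, −0.4 for PSMD7, −0.33 for PSMD2, −0.29 for PSMD13, −0.25 for PSMD12, and −0.23 each for PSMD3 and PSMD6. The base chaperones PSMD5 and PSMD10 had −0.23 each. The ATPases had −0.41 for PSMC1, −0.37 for PSMC2, −0.31 for PSMC3, −0.28 for PSMC4 and PSMC6, and −0.2 for PSMC5. Among the α subunits the differences were −0.44 for PSMA3, −0.42 for PSMA7, −0.41 for PSMA4 and −0.39 for PSMA5. Among the β subunits they were −0.27 for PSMB2, −0.26 for PSMB3, −0.18 for PSMB1 and −0.17 for PSMB5. Leaving out 1 library lost 6 of these calls in 1 to 4 of 8 fits each. PSMB1 was lost without FGF8+10 Pdgfra-low replicate 2 (adjusted p 0.0907). PSMB3 was lost without FGF8+10 Pdgfra-positive replicate 1, FGF8+10 Pdgfra-low replicate 1, Mock Pdgfra-positive replicate 2 or Mock Pdgfra-low replicate 2 (adjusted p of 0.12, 0.0609, 0.101 and 0.0698). PSMB5 was lost without FGF8+10 Pdgfra-positive replicate 1, either FGF8+10 Pdgfra-low replicate or Mock Pdgfra-low replicate 2 (adjusted p of 0.186, 0.0584, 0.0516 and 0.108). PSMC5 was lost without replicate 2 of FGF8+10 Pdgfra-positive or of FGF8+10 Pdgfra-low, or Mock Pdgfra-low replicate 1 (adjusted p of 0.119, 0.0748 and 0.0501). PSMD10 was lost without FGF8+10 Pdgfra-positive replicate 2, FGF8+10 Pdgfra-low replicate 1 or Mock Pdgfra-positive replicate 1 (adjusted p of 0.0549, 0.09 and 0.094). PSMD5 was lost without FGF8+10 Pdgfra-positive replicate 2, FGF8+10 Pdgfra-low replicate 1 or Mock Pdgfra-low replicate 1 (adjusted p of 0.0761, 0.0781 and 0.086).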

How the results depend on the processing

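Scaling by library totals gave the widest change. With it, members higher with FGF8+10 in Pdgfra-positive cells were 30 and members lower 0, and members lower in Pdgfra-low cells were 0; in Pdgfra-positive cells the log2 fold change of PSMB1 became 0.13, of PSMB5 0.0864, of PSMC4 0.13, of PSMD1 0.16, of PSMD12 0.11, of PSMD3 0.0196 and of PSMD8 0.11, and in Pdgfra-low cells that of PSMD10 became 0.12, against negative values with TMM. The single fall in Pdgfra-low cells, PSMD9, was 0 at an adjusted p of 0.01 and 0 among the 30 members with at least 20 CPM, a restriction chosen after seeing the data. In that restriction the higher members in Pdgfra-positive cells were 0 under FGF8+10 and 0 under Mock. The 1 member higher under Mock, PSMB8, was 0 with no filter, with counts halved, with only the groups of the contrast and at an adjusted p of 0.01. Leaving out each library in turn gave 12 to 15 higher and 2 to 4 lower for FGF8+10 in Pdgfra-positive cells, 26 to 29 and 0 to 1 in Pdgfra-low cells, 2 to 2 and 29 to 31 between gates under FGF8+10, 0 to 1 and 20 to 25 under Mock, and 0 to 0 and 21 to 25 for the difference. A group left with 1 library is assumed to vary like the others. The replicate number as a block gave 15 and 4, 28 and 1, 2 and 31, 1 and 25, and 0 and 25. Same-numbered libraries showed little shared deviation, at r of −0.006 to 0.033. So small an r cannot settle whether libraries came from shared cultures, which the labels do not say. DESeq2 gave 15 and 3, 28 and 1, 2 and 31, 1 and 24, and 0 and 25. The cause of each change was not tested. Depth limits PSMB8, PSMB9 and PSMB10, and shared exons limit PSMA1, PSMA2, PSMA6 and PSMD9.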

Other observations

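Rows named after subunits but outside the set gave 2 further values. PSMA3-AS1, a transcript antisense to PSMA3, had 71.4 and 73.3 CPM in FGF8+10 Pdgfra-positive, 51.9 and 56.4 CPM in FGF8+10 Pdgfra-low, 83.9 and 86.05 CPM in Mock Pdgfra-positive and 67.7 and 69.5 CPM in Mock Pdgfra-low libraries. It was lowest in FGF8+10 Pdgfra-low libraries, where PSMA3 was highest, and fell with FGF8+10 by 0.23 ± 0.043 in Pdgfra-positive and by 0.34 ± 0.044 in Pdgfra-low cells on the log2 scale (edgeR adjusted p of 9.55e-06 and 5.2e-09). Both falls are at TMM scaling, relative to the bulk of genes. Library totals shifted the median of all genes up by 0.171 in Pdgfra-positive and by 0.161 in Pdgfra-low cells. The counts carry no strand, but none of the exon bases of PSMA3 are shared with another gene. PSMC1P1, a processed copy of PSMC1, had 1.82 and 1.40, 3.38 and 3.26, 1.73 and 1.99, and 1.46 and 1.84 CPM in the same groups. It rose with FGF8+10 in Pdgfra-low cells by 1.01 ± 0.24 (edgeR adjusted p 0.00028), as PSMC1 did by 0.61 ± 0.049, and reads of the 2 near-identical genes may be split between them. Both rows were chosen after their values were seen.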
